A study of Mus musculus with 9 samples.

Results

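The luminal progenitor identity genes considered here were *Kit*, *Kitl*, *Elf5*, *Ehf*, *Aldh1a3*, *Cd14* and *Itga2*. They were picked by symbol, with each symbol matched to its Ensembl identifier, and make up 7 of the 35275 genes in the table of counts. All 7 passed the filter on low counts and were tested among 15821 genes. *Kit* had also been singled out by the study from these same tumors, so its difference is not independent evidence.

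The mammary epithelium holds a basal layer and a luminal layer, and the luminal layer contains hormone-sensing cells and progenitors that give rise to the milk-secreting alveolar cells. The luminal progenitors carry the KIT receptor on their surface, and they are widely held to be the cells from which BRCA1-deficient mammary tumors arise. KIT is a receptor tyrosine kinase whose ligand is encoded by *Kitl*. ELF5 and EHF are ETS transcription factors of epithelia, ALDH1A3 makes retinoic acid from retinal, CD14 is a co-receptor for lipopolysaccharide that myeloid cells also carry, and ITGA2 is the alpha 2 chain of a collagen-binding integrin.

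RNA was sequenced from 9 mammary tumors, 3 from mice given saline, 3 from mice given free Talazoparib by vein (i.v. TLZ) and 3 from mice given Talazoparib packed in nano-liposomes (NanoTLZ). Talazoparib inhibits PARP, the enzyme that adds poly(ADP-ribose) chains at DNA breaks. All 9 mice, saline included, were Brca1Co/Co;MMTV-Cre;p53+/-, so that Cre driven by the mouse mammary tumor virus promoter deletes part of *Brca1* in mammary epithelium and in other tissues where that promoter is active, and 1 *Trp53* allele is missing throughout. Dosing began at a tumor diameter of 4 to 5 mm and comprised 5 doses at 3 per week, with 0.33 mg/kg of Talazoparib per dose in both treated groups. The ages of the mice were not given in the sources used here. Tumors arose spontaneously, and no tumor given empty nanoparticles was sequenced, so the liposome itself and the drug within it cannot be told apart. In bulk tumors, fewer cells of a type and less RNA per cell cannot be told apart either.

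Total counts ranged from 17538380 to 21194980 per tumor. Saline tumor 3 stood apart, with Spearman correlations to the other 8 tumors of 0.843 to 0.875 over 15821 genes, against 0.900 to 0.970 among those 8. It held the most *Krt5*, a basal keratin, at 1849 counts scaled to library size (CPM), against 2.30 to 72.9 CPM in the other tumors. The sum of 10 basal and myoepithelial genes, *Krt5* included, was 3718 CPM in saline tumor 3 and 3259 CPM in i.v. TLZ tumor 1. In the remaining tumors it was 334 to 1485 CPM. Counts of the 7 genes are also given without saline tumor 3 because it stood apart. Whole-gene *Brca1* was 9.46 to 42.7 CPM and *Trp53* 23.4 to 107.6 CPM, which does not check the deleted part. Epithelial origin was apparent from *Epcam*, at 604 CPM or more in each tumor, and *Krt8*, at 738 CPM or more.

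Per length of exon, *Cd14* was the most abundant of the 7 genes, with a mean over the 9 tumors of 133 CPM per kb, above 98.0% of tested genes. *Ehf* followed at 37.3 CPM per kb, *Kit* at 23.3 and *Aldh1a3* at 18.9, and then *Elf5* at 8.97 and *Kitl* at 6.63. *Itga2* was lowest at 1.43 CPM per kb, above only 25.5% of tested genes, and its smallest count in a tumor was 107. The order was not the same in each group, and after i.v. TLZ *Aldh1a3* at 13.4 ± 6.67 CPM per kb and *Kit* at 12.6 ± 3.06 were not apart beyond their spread (SD, n = 3). In saline tumors *Ehf* averaged 54.6 ± 6.08 CPM per kb and *Kit* 38.2 ± 7.43 (SD, n = 3), and *Aldh1a3* and *Cd14* had SDs of 22.9 and 70.7 CPM per kb that spanned their neighbors in the order. *Elf5* at 13.5 ± 3.58 and *Kitl* at 10.1 ± 2.83 CPM per kb did not differ beyond their spread in the same tumors.

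*Kit* was lower in every treated tumor than in any saline tumor. It measured 314.8, 290.8 and 415.6 CPM in saline tumors 1 to 3. It measured 133.5, 121.7 and 81.5 CPM after i.v. TLZ. It measured 164.2, 178.7 and 164.9 CPM after NanoTLZ. The 3 groups did not overlap, with i.v. TLZ lowest and NanoTLZ between it and saline. The group means were 340.4 ± 66.2, 112 ± 27.3 and 169 ± 8.21 CPM (SD, n = 3). Here and below, fold changes are fitted values of edgeR's quasi-likelihood test on all 9 tumors, and adjusted p-values are from the Benjamini-Hochberg method over all 15821 genes. *Kit* was 3.03-fold lower after i.v. TLZ (log2 fold change -1.60, SE 0.28), which ranked 9 among all genes by p-value and did not pass the adjustment (adjusted p = 0.251). It was 2.01-fold lower after NanoTLZ (log2 fold change -1.01, SE 0.28, adjusted p = 0.552).

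**Figure D1:**
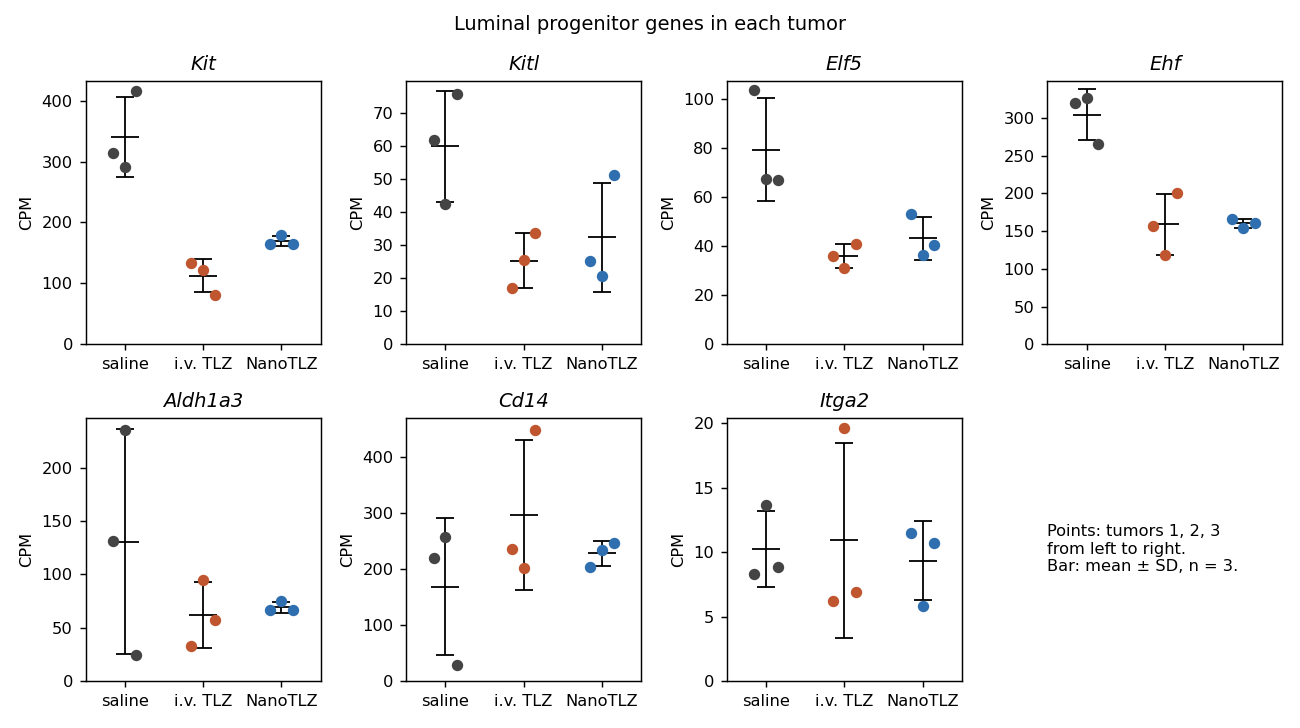
Levels of the 7 genes in each tumor. Points are tumors 1 to 3 of a group from left to right in CPM, and bars are means ± SD of 3 tumors; *Kit*, *Elf5* and *Ehf* have all 6 treated tumors below all 3 saline tumors, while saline tumor 3 lies far below the other saline tumors for *Aldh1a3* (24.5 CPM) and *Cd14* (28.4 CPM).

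The *Kit* gene lies on chromosome 5 (chr5:75574916-75656722, plus strand, GRCm38). The promoter is shown because *Kit* had the smallest p-value of the 7 genes in each comparison with saline over all 9 tumors; it is the RefSeq stretch of 179 bases that ends just before the first annotated exon (chr5:75574737-75574915, GRCm38.p6, plus strand, 5′ to 3′). Capitals mark the ETS core GGAAG, searched on both strands as GGAAG or CTTCC.
*Kit* promoter: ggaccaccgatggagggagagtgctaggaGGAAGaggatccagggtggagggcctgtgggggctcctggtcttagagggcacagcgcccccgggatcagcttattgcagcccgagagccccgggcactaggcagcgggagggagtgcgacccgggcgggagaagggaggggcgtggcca
The stretch holds 1 ETS core, and 50.9% of 32851 promoter windows taken at the same length hold at least 1. It holds no GATAA, which binds GATA factors, and no TTCNNNGAA, which binds STAT factors, on either strand. These motifs occur in 17.9% and 5.23% of the windows.

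*Kitl*, the gene of the KIT ligand (chr10:100015630-100100416, plus strand), was also lower on average in treated tumors, with more spread. The saline tumors measured 61.7, 42.4 and 75.7 CPM. The i.v. TLZ tumors measured 17.0, 25.4 and 33.5 CPM, and the NanoTLZ tumors 25.3, 20.6 and 51.1 CPM. All i.v. TLZ tumors were below all saline tumors, whereas NanoTLZ tumor 3 lay above saline tumor 2. Against saline, i.v. TLZ gave a log2 fold change of -1.24 (SE 0.41, adjusted p = 0.437) and NanoTLZ one of -0.89 (SE 0.41, adjusted p = 0.563). The 3 groups form separate clusters for *Kit*, so no correlation of receptor and ligand across groups is given. With the group means removed, Pearson's r of their log2 CPM over the 9 tumors was -0.22, as a description.

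*Elf5*, whose protein drives luminal progenitors towards the alveolar fate downstream of the prolactin receptor, was lower in every treated tumor. It measured 103.5, 67.2 and 66.8 CPM in saline tumors. It measured 35.8, 31.1 and 40.7 CPM after i.v. TLZ and 52.9, 36.2 and 40.4 CPM after NanoTLZ. The treated groups overlapped each other and neither reached the saline range. For *Elf5* the log2 fold change with i.v. TLZ was -1.14 (SE 0.28, adjusted p = 0.417), and with NanoTLZ it was -0.88 (SE 0.28, adjusted p = 0.552).

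*Elf5* lies on chromosome 2 (chr2:103411688-103450989, plus strand). The stretch before its downstream RefSeq start, 244 bases within an intron of the longer transcripts (chr2:103423818-103424061, plus strand, 5′ to 3′), is shown for comparison with *Kit*. Capitals mark GATAA, here on the opposite strand as TTATC.
*Elf5* downstream promoter: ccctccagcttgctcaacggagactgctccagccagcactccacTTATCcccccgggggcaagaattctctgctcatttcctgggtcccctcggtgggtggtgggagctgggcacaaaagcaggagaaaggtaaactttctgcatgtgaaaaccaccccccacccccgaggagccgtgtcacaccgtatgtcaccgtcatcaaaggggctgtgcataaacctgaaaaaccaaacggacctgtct
The stretch holds 1 GATAA, a motif found in 22.3% of windows of this length. It holds neither the ETS core, found in 62.9% of windows, nor TTCNNNGAA, found in 6.88%.

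*Ehf*, the other epithelial ETS gene (chr2:103263433-103303278, minus strand), had almost the same difference in both treated groups. It measured 320.1, 327.1 and 265.3 CPM in saline tumors. It measured 157.3, 119.0 and 200.5 CPM after i.v. TLZ and 166.2, 153.7 and 160.4 CPM after NanoTLZ. All 6 treated tumors lay below the saline range. Log2 fold changes of *Ehf* were -0.94 for i.v. TLZ (SE 0.27, adjusted p = 0.417) and -0.93 for NanoTLZ (SE 0.27, adjusted p = 0.552).

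*Ehf* and *Elf5* are next to each other among protein-coding genes, 108409 bp apart on opposite strands. For both treated groups together against saline, their log2 fold changes were -0.93 (SE 0.22) and -1.01 (SE 0.24), with an adjusted p of 0.271 for each. Their closest neighbors on the far sides did not share this size of difference. *Cat*, the catalase gene that ends 2859 bp from *Elf5*, had a log2 fold change of 0.17 (SE 0.26, adjusted p = 0.798), and *Apip*, on the far side of *Ehf*, one of 0.37 (SE 0.31, adjusted p = 0.613). Within the 6 treated tumors *Elf5* and *Ehf* had Pearson's r of 0.62 (exact permutation p = 0.174, adjusted p = 0.782 over 21 pairs) and Spearman's rho of 0.89 (exact permutation p = 0.033, adjusted p = 0.700). The r was 0.70 without the 2 tumors farthest from the median of *Elf5*. With the group means removed, r over the 9 tumors was 0.55 for *Elf5* and *Ehf*, as a description. It was -0.78 for *Kit* and *Ehf* and -0.43 for *Kit* and *Elf5*.

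**Figure D2:**
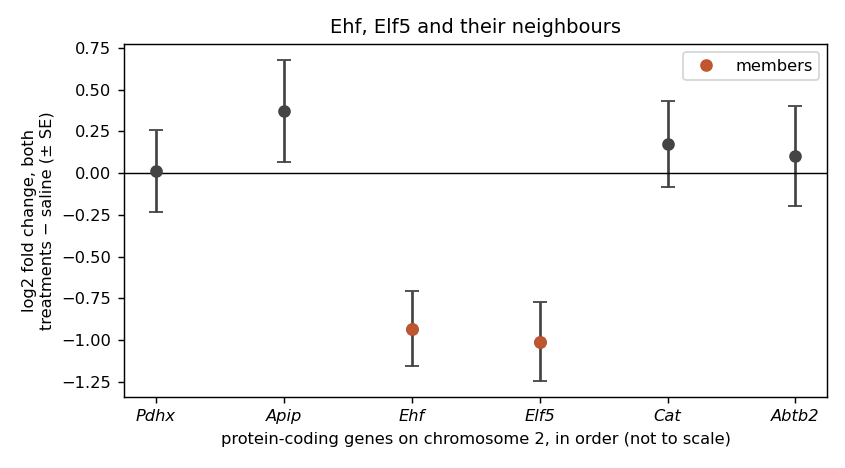
*Ehf*, *Elf5* and their protein-coding neighbors in chromosomal order (distances not to scale). The vertical axis is the log2 fold change of both treated groups together against saline with its SE; *Ehf* (-0.93) and *Elf5* (-1.01) lie below 0 and the 4 neighbors between 0.01 and 0.37.

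*Aldh1a3* (chr7:66390890-66427517, minus strand) separated by treatment in all tumors but 1. It measured 131.5, 235.8 and 24.5 CPM in saline tumors, 33.2, 94.4 and 57.5 CPM after i.v. TLZ and 66.2, 75.0 and 66.2 CPM after NanoTLZ. Saline tumor 3 was the lowest of all 9 tumors and the other 2 saline tumors were the highest. With all 9 tumors fitted, i.v. TLZ gave a log2 fold change of -1.08 (SE 0.65, adjusted p = 0.571) and NanoTLZ one of -0.92 (SE 0.65, adjusted p = 0.655). Left without saline tumor 3, these became -1.56 (SE 0.42, edgeR adjusted p = 0.417) and -1.38 (SE 0.42, edgeR adjusted p = 0.639), both past an unadjusted p of 0.05. Omitting a different single tumor instead shrank the *Aldh1a3* difference to as little as -0.34 (i.v. TLZ) or -0.18 (NanoTLZ). Of 21 alternative settings per comparison, only the 1 without saline tumor 3 passed that p, so the drop depended on which tumors were kept.

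*Cd14* owed most of its difference to saline tumor 3. It measured 218.6, 257.1 and 28.4 CPM in saline tumors, 235.7, 201.9 and 448.4 CPM after i.v. TLZ and 202.6, 233.4 and 246.2 CPM after NanoTLZ. Saline tumors 1 and 2 lay within the range of the treated tumors. Treatment with i.v. TLZ gave a log2 fold change of 0.81 (SE 0.64, adjusted p = 0.661) and NanoTLZ one of 0.44 (SE 0.64, adjusted p = 0.843). Without saline tumor 3 these were 0.32 and -0.037.

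*Itga2* (chr13:114833081-114932100, minus strand) was low in all tumors. It measured 8.30, 13.6 and 8.85 CPM in saline tumors, 6.20, 19.6 and 6.93 CPM after i.v. TLZ and 11.5, 5.84 and 10.7 CPM after NanoTLZ. The 3 groups overlapped, and i.v. TLZ tumor 2 was the highest. Against saline, the log2 fold change of *Itga2* was 0.09 for i.v. TLZ (95% interval -1.06 to 1.24) and -0.14 for NanoTLZ (95% interval -1.28 to 1.01), with adjusted p-values of 0.963 and 0.949, so that a difference of the size seen for *Kit* after NanoTLZ lies within the second interval. The 250 bases before its start (chr13:114932101-114932350, minus strand, 5′ to 3′) are shown as those of the member with the smallest differences.
*Itga2* promoter: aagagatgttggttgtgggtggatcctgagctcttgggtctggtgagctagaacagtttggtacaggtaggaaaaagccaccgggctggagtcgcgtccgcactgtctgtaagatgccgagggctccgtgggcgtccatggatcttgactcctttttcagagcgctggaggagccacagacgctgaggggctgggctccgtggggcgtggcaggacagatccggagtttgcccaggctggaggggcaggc
None of the 3 motifs is in this stretch, and 64.1% of windows of this length hold the ETS core, 22.6% GATAA and 7.02% TTCNNNGAA.

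Both comparisons with saline use the same 3 saline tumors, so their counts are set side by side and are not independent of each other. After i.v. TLZ, 0 of the 7 genes passed the adjusted p of 0.05, where 0.0% of all tested genes were called lower. At an unadjusted p under 0.05, 4 of the 7 were lower (*Kit*, *Kitl*, *Elf5* and *Ehf*), against 5.47% of all genes. The same 4 genes had i.v. TLZ tumors wholly below saline tumors, against 5.2% of all genes. After NanoTLZ, 0 of the 7 passed the adjustment, against 0.0% of all genes called lower and 0.00632% called higher. At an unadjusted p under 0.05, 3 were lower (*Kit*, *Elf5* and *Ehf*), against 5.49% of all genes, and the same 3 lay wholly below saline, against 8.13%. The 7 genes had a median log2 fold change of -1.08 with i.v. TLZ, where all genes had -0.03. With NanoTLZ the medians were -0.89 and -0.09.

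Without saline tumor 3, *Aldh1a3* joined the genes that lay wholly below saline in both comparisons. The counts were then 5 of 7 after i.v. TLZ, against 9.36% of all genes, and 4 of 7 after NanoTLZ, against 14.0%. They were 4 of 7 in both treated groups together, against 5.33%. At an unadjusted p under 0.05 and without that tumor, 5 of 7 were lower after i.v. TLZ, against 4.19% of all genes, and 4 of 7 after NanoTLZ, against 3.26%, again with *Aldh1a3* added. In both treated groups together the count stayed at 4, against 4.87% of all genes, with *Aldh1a3* in and *Kitl* out. For both treated groups together against saline, 4 of the 7 genes were lower at an unadjusted p under 0.05 (*Kit*, *Kitl*, *Elf5* and *Ehf*), against 8.29% of all genes. Of these, *Kit*, *Elf5* and *Ehf* did not overlap with saline, against 2.66% of all genes. In this pooled comparison 0 of 7 passed the adjusted p in edgeR, against 0.0126% of all genes called lower, and *Kit* had a log2 fold change of -1.30 (SE 0.23, adjusted p = 0.147).

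The call depended on the tool. DESeq2 fitted to all 9 tumors called *Kit* lower after i.v. TLZ (adjusted p = 0.000571), in a comparison where it called 0.531% of its genes lower. It called *Kit* (adjusted p = 0.00134), *Ehf* (adjusted p = 0.0397) and *Elf5* (adjusted p = 0.0481) lower in both treated groups together, where it called 0.842% of genes lower. It called 0 of the 7 genes after NanoTLZ alone, where it called 0.337% lower. DESeq2 run on the i.v. TLZ and saline tumors by themselves again called *Kit* lower (adjusted p = 0.0413), with 0.257% of genes called lower.

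**Figure D3:**
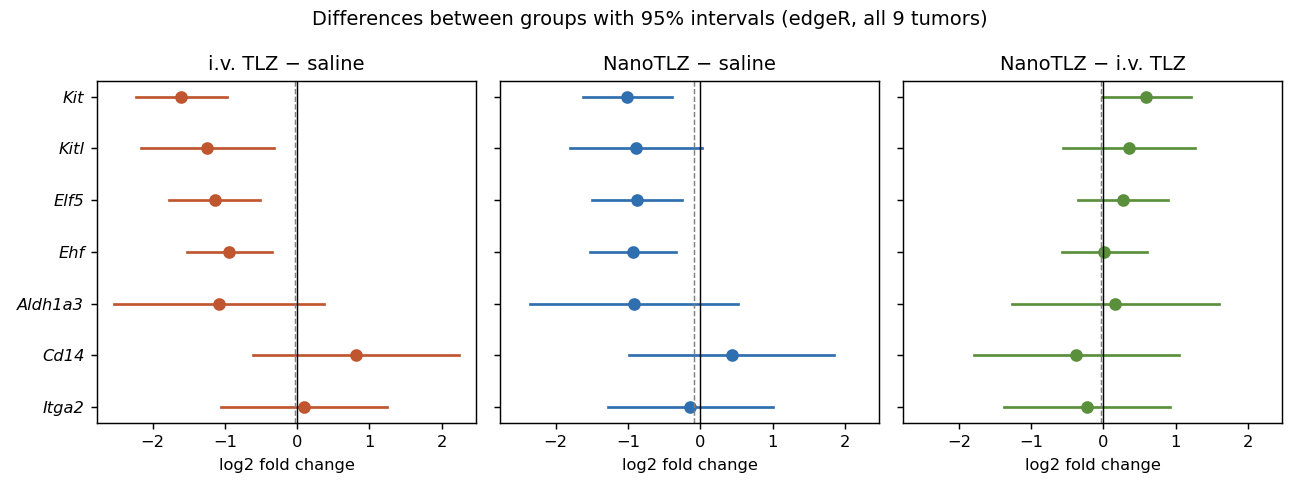
Log2 fold changes of the 7 genes with 95% intervals from edgeR on all 9 tumors. Panels are i.v. TLZ against saline, NanoTLZ against saline and NanoTLZ against i.v. TLZ, and the dashed line is the median of all tested genes; *Kit*, *Elf5* and *Ehf* have intervals below 0 in the first and second panels, and in the third panel all 7 intervals include 0.

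The test of NanoTLZ against i.v. TLZ asks whether the formulation mattered at an equal dose. *Kit* was higher after NanoTLZ in 3 of 3 tumors than in any i.v. TLZ tumor, and was the only 1 of the 7 genes whose groups did not overlap, against 3.2% of all genes that did not overlap in that direction. Its log2 difference was 0.59 (95% interval -0.02 to 1.21, adjusted p = 0.9999). In edgeR 0 of the 7 genes passed an unadjusted p under 0.05, where 1.23% of all genes were lower and 0.449% higher. The nearest to 0 was *Ehf*, with a log2 difference of 0.01 (95% interval -0.58 to 0.60). The intervals of *Kitl* (-0.56 to 1.26) and *Elf5* (-0.36 to 0.89) also include 0 and are wide enough to hold the difference of *Kit*. The median over the 7 genes was 0.17 and over all genes -0.04.

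Genes that mark other cells in a tumor were read beside *Kit*, *Cd14* and the 2 ETS genes. Mast cells depend on KIT for survival, and their markers were low. Of 8 markers 3 were tested (*Mcpt4*, *Tpsb2* and *Hdc*), and all 3 were lower after i.v. TLZ with a median log2 fold change of -2.24. An unadjusted p under 0.05 was reached by 1 of them, against 5.47% of all genes. For 2 the i.v. TLZ tumors lay wholly below saline tumors, against 5.2%. After NanoTLZ 2 were lower and 1 higher with a median of -0.64, and 0 passed. In both treated groups together 3 were lower and 0 passed. Between NanoTLZ and i.v. TLZ 1 was lower and 2 higher with a median of 1.60, and 1 passed as higher, against 0.449% of all genes. *Cpa3*, the mast cell carboxypeptidase, was at most 0.241 CPM, and *Fcer1a* had 0 counts in all 9 tumors. The 8 mast cell markers summed to 4.59 to 10.1 CPM in saline tumors, 1.73 to 8.92 CPM after i.v. TLZ and 2.57 to 6.55 CPM after NanoTLZ, most of it *Hdc*. *Kit* was 81.5 CPM or more in each tumor, and the part of mast cells in its level was not tested. Of 5 markers of melanocytes, which also carry KIT, *Dct*, *Tyr*, *Tyrp1* and *Mlana* had at most 3 counts in each tumor. The fifth, *Pmel*, was tested and had a log2 fold change of 0.27 in both treated groups together, and the 5 summed to 0.505 to 1.14 CPM.

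Macrophage and monocyte markers were higher on average in treated tumors, as *Cd14* was. All 13 were higher in both treated groups together and 2 of them passed an unadjusted p under 0.05 (*Lyz2* and *Mertk*), against 4.8% of all genes that were higher at that level. Their sum was 743 to 3259 CPM in saline tumors, 1856 to 3413 CPM after i.v. TLZ and 4405 to 5323 CPM after NanoTLZ, so all NanoTLZ tumors were above all others, while i.v. TLZ and saline tumors overlapped. After i.v. TLZ alone, 3 of the 13 were lower and 10 higher. When saline tumor 3 was left out, 2 were lower (*Fcgr1* and *Ccr2*) and 11 higher in both treated groups together, with 2 of these (*Mrc1* and *Mertk*) at an unadjusted p under 0.05, against 4.4% of all genes. *Cd14* did not follow this order. Saline tumor 1 had 218.6 CPM of *Cd14* with the lowest macrophage sum, and saline tumor 3 had 28.4 CPM of *Cd14* at a macrophage sum of 855 CPM. The part of these cells in the *Cd14* level was not tested.

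**Figure D4:**
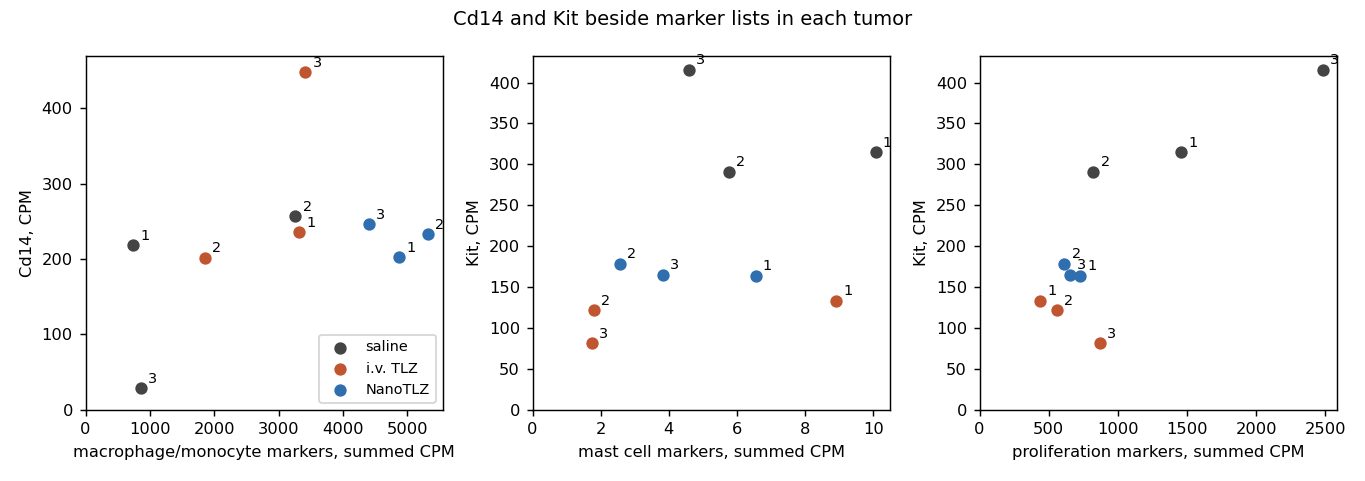
*Cd14* and *Kit* beside marker lists in each tumor, with each point labelled by the tumor's number. Axes are CPM of the gene and the summed CPM of the markers; the macrophage sum of 743 to 855 CPM in saline tumors 1 and 3 goes with *Cd14* at 218.6 and 28.4 CPM, the mast cell sum is 10.1 CPM or less in all tumors, and *Kit* and the proliferation sum are both highest in saline tumor 3.

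Pan-epithelial genes were read beside the 7 members, with all 9 tumors fitted unless stated. *Kit*, *Kitl*, *Elf5* and *Ehf* were picked out of the 7 because they were lower. A smaller difference in a list not picked that way is therefore not a test of epithelial content. Of 8 pan-epithelial genes 6 were lower and 2 higher in both treated groups together, 0 of 8 passed an unadjusted p under 0.05, and their median log2 fold change was -0.15. Leaving out saline tumor 3 gave 7 lower and 1 higher with a median of -0.43. Only *Cldn7* was then lower at an unadjusted p under 0.05, against 4.87% of all genes. Their sum was 3370 to 7870 CPM in saline tumors, 3827 to 6549 CPM after i.v. TLZ and 4025 to 4776 CPM after NanoTLZ. With counts scaled to these 8 genes, the log2 fold change of *Kit* was -1.72 after i.v. TLZ and -0.95 after NanoTLZ. *Kit*, *Kitl*, *Elf5* and *Ehf* then kept an unadjusted p under 0.05 after i.v. TLZ, against 4.13% of all genes, and in both treated groups together, against 5.69%. After NanoTLZ only *Kit* of the 7 genes kept it in the edgeR test, against 2.5% of all genes, with log2 fold changes of -0.79 for *Ehf* and -0.69 for *Elf5*.

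Proliferation genes were lower beside the 4 members that were lower. All 12 were lower in both treated groups together, with a median log2 fold change of -1.27, and 10 passed an unadjusted p under 0.05, against 8.29% of all genes. Without saline tumor 3, in which *Mki67* was 940 CPM, 4 of the 12 passed, against 4.87% of all genes, and the median was -0.65. Their sum was 824 to 2483 CPM in saline tumors, 438 to 869 CPM after i.v. TLZ and 613 to 726 CPM after NanoTLZ. Skeletal muscle genes, which come from outside the mammary epithelium, were lower in 8 of 8 cases and summed to 31.5 to 715 CPM in saline tumors against 12.0 to 33.98 CPM after i.v. TLZ and 12.9 to 19.0 CPM after NanoTLZ. The part of dividing cells and of adjacent muscle in the levels of *Kit*, *Kitl*, *Elf5* and *Ehf* was not tested.

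Other genes of luminal progenitors did not share 1 direction. Of 18 listed, 17 were tested, and in both treated groups together 10 were lower and 7 higher with a median log2 fold change of -0.13. At an unadjusted p under 0.05, 3 were lower and 0 higher, against 8.29% and 4.8% of all genes. Without saline tumor 3, 12 were lower and 5 higher with a median of -0.31. In that fit 4 were lower at that level, against 4.87% of all genes, and 0 higher. *Gabrp*, a GABA receptor subunit described after its values were seen, measured 297.1, 388.9 and 249.98 CPM in saline tumors, against 56.6 to 218 CPM after i.v. TLZ and 74.6 to 130 CPM after NanoTLZ, and its log2 fold change was -1.41 (SE 0.38, adjusted p = 0.282). Like *Kit*, it was lower in every treated tumor than in any saline tumor. *Bcl11a*, a transcription factor of luminal progenitors, measured 20.2, 9.96 and 128 CPM in saline tumors and 5.96 to 6.73 CPM in the 6 treated tumors. Its log2 fold change of -3.05 (SE 0.62, adjusted p = 0.215) became -1.22 without saline tumor 3. *Tspan8*, a tetraspanin, had a log2 fold change of -2.02 (SE 0.63, adjusted p = 0.284) and reached 11.6 CPM in saline tumor 1 alone. Among the 7 higher genes, *Slpi* had a log2 fold change of 1.71 (SE 0.93, adjusted p = 0.451) and *Cxcl1* one of 1.18 (SE 0.59, adjusted p = 0.415). *Cldn4* was higher in every i.v. TLZ tumor than in any saline tumor (log2 fold change 0.84, SE 0.35, adjusted p = 0.455). After NanoTLZ its log2 fold change was -0.12. *Slpi*, *Cxcl1* and *Cldn4* were described after their values were seen.

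Saline tumor 3 lay at an extreme for several of these genes, chosen for display after their values were seen. It was the lowest of the 9 tumors for *Itgb3* (35.5 CPM), the integrin beta 3 chain used with *Kit* to sort luminal progenitors, for *Lcn2* (135 CPM), *Mfge8* (441 CPM), *Slpi* (3.26 CPM) and *Trf* (0.229 CPM), as it was for *Aldh1a3* and *Cd14*. It was the highest for *Kit*, *Kitl*, *Sox10* (1060 CPM) and *Wfdc18* (2497 CPM).

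**Figure D5:**
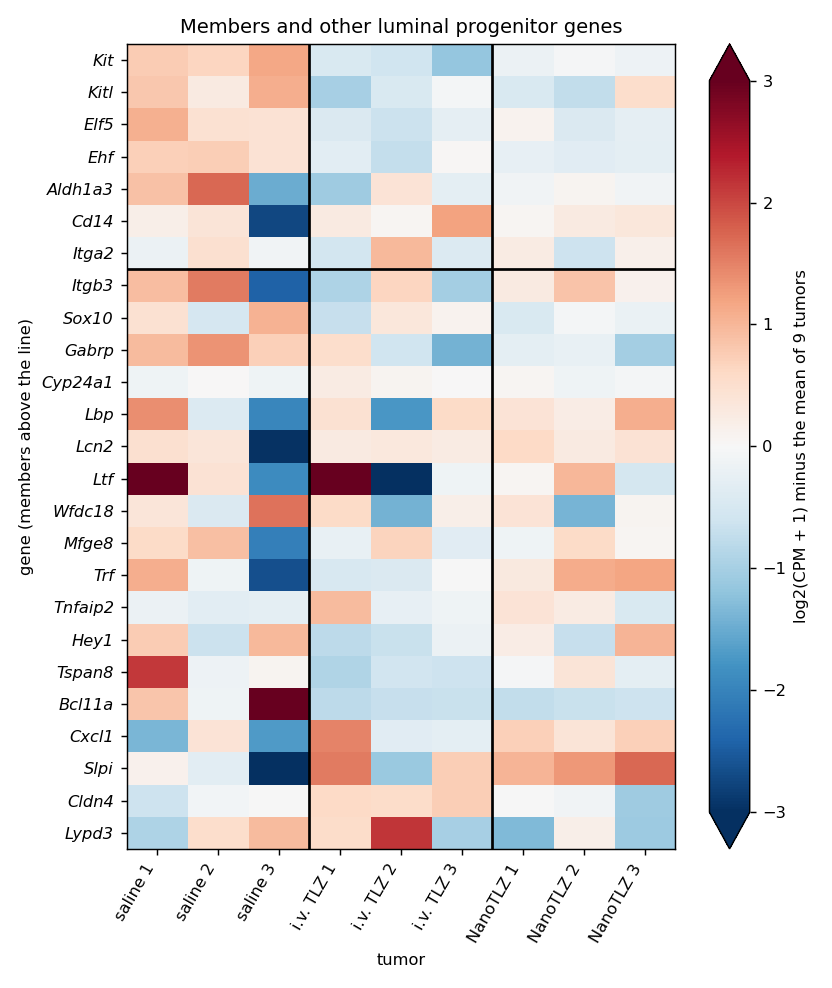
The 7 genes (above the line) and 18 other luminal progenitor genes in each tumor. Color is log2(CPM + 1) minus the mean of the 9 tumors, limited to 3 in either direction; *Kit*, *Kitl*, *Elf5* and *Ehf* are above their mean in all 3 saline tumors, and saline tumor 3 is far below the mean for *Cd14*, *Lcn2*, *Slpi* and *Itgb3*.

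The genes around KIT signalling differed in both directions. Of 29 adaptors, kinases, phosphatases and targets, 17 were lower and 12 higher in both treated groups together, with a median log2 fold change of -0.11. At an unadjusted p under 0.05 only *Spred1* was lower and 0 were higher, against 8.29% and 4.8% of all genes. *Spred1*, an inhibitor of the RAS pathway, measured 235, 127 and 148 CPM in saline tumors and 108 to 122 CPM in treated tumors (log2 fold change -0.56, SE 0.23, adjusted p = 0.357). The count without saline tumor 3 was 4 lower (*Spred1*, *Cblb*, *Stat5a* and *Gata2*) and 1 higher (*Sh2b2*), against 4.87% and 4.4% of all genes. Of 12 tested genes of related receptors and of the *Kit* locus, 5 were lower and 7 higher. At an unadjusted p under 0.05, 1 was lower and 1 higher, against 8.29% and 4.8% of all genes. *Pdgfra*, the related receptor gene 376700 bp upstream, had a log2 fold change of 1.06 (SE 0.37, adjusted p = 0.307), opposite to *Kit*, and *Kdr*, the related receptor gene downstream, one of 0.31 (SE 0.33, adjusted p = 0.704). *Clock*, listed with that locus, had a log2 fold change of -0.59 (SE 0.26, adjusted p = 0.367). Without saline tumor 3, 0 of these 12 genes passed an unadjusted p under 0.05 in either direction.

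The axis from the prolactin receptor to *Elf5* had more genes lower than higher. Of 13 genes 12 were tested, *Elf5* included, 10 were lower and 2 higher in both treated groups together, and 4 were lower at an unadjusted p under 0.05, against 8.29% of all genes. Only *Elf5* did not overlap with saline. The axis summed to 3713 and 2179 CPM in saline tumors 1 and 2 and to 258 CPM in saline tumor 3, which was below all treated tumors at 534 to 952 CPM. *Prlr*, the prolactin receptor, measured 155, 20.1 and 52.8 CPM in saline tumors and 18.2 to 32.3 CPM in treated tumors (log2 fold change -1.57, SE 0.49, adjusted p = 0.284). Saline tumor 2 lay within the treated range, so the groups overlapped. *Lalba*, the whey protein gene of lactose synthesis, had 28.6 CPM in saline tumor 1 and at most 1.42 CPM elsewhere, with a fitted log2 fold change of -4.47 (SE 1.33, adjusted p = 0.284). *Csn1s1*, a casein gene, measured 1659 and 1176 CPM in saline tumors 1 and 2 and 1.01 CPM in saline tumor 3, against 32.5 to 194 CPM in treated tumors. Without saline tumor 3, 8 of the 12 genes, *Elf5* included, were lower at an unadjusted p under 0.05, against 4.87% of all genes. Among them were *Csn1s1* with a log2 fold change of -3.67 (edgeR adjusted p = 0.147), *Stat5a* and *Jak2*.

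Among 13 tested ETS genes, *Elf5* and *Ehf* were the 2 lower at an unadjusted p under 0.05 in both treated groups together. The shares of all genes were 8.29% lower and 4.8% higher. *Ets1*, which is expressed in lymphocytes and endothelium, was the 1 higher (log2 fold change 0.82, SE 0.35, adjusted p = 0.362). *Elf3*, the third epithelial ETS gene, joined the lower genes without saline tumor 3, with a log2 fold change of -1.08 (edgeR adjusted p = 0.349), as did *Ets2*. The count without that tumor was 4 lower and 0 higher, against 4.87% and 4.4% of all genes, so *Ets1* no longer passed.

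The retinoic acid genes, *Aldh1a3* included, differed in both directions. Of 15 tested, 8 were lower and 7 higher in both treated groups together. At an unadjusted p under 0.05, 1 was lower and 2 higher, against 8.29% and 4.8% of all genes. *Rdh10*, which makes retinal for *Aldh1a3*, had a log2 fold change of -0.74 (SE 0.26, adjusted p = 0.307) and was lower in every treated tumor than in any saline tumor. *Dhrs3*, which turns retinal back to retinol, had one of 0.83 (SE 0.29, adjusted p = 0.298), and *Aldh1a2*, the retinal dehydrogenase of stroma, one of 2.17 (SE 0.90, adjusted p = 0.357). Without saline tumor 3, 2 of the 15 were lower at that level (*Aldh1a3* and *Rdh10*) and 1 higher (*Dhrs3*), against 4.87% and 4.4% of all genes. *Aldh1a2* then no longer passed. Of 12 genes of the lipopolysaccharide receptor, *Cd14* included, 0 passed an unadjusted p under 0.05 in either direction. Of 7 collagen-binding integrin and collagen receptor genes, *Itga2* included, 0 did. These counts without saline tumor 3 were 1 lower in each list, *Tlr4* and *Ddr2*, against 4.87% of all genes.

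The genes whose levels followed those of *Kit*, *Elf5* and *Aldh1a3* most closely were ranked by Pearson's r of log2 CPM over the 9 tumors among the other 15820 tested genes, as a description. Next to *Kit* were *Rapgef5* (r = 0.96), *Larp7* (r = 0.94), *4930451G09Rik* (r = 0.93), *Lrrc2* (r = 0.93) and *Trmt10a* (r = 0.93). Next to *Elf5* were *Mlxip* and *Rnf2* (r = 0.96 for each), *Top2a* (r = 0.96), *Ints7* and *Pign* (r = 0.95 for each). *Ehf* ranked 49 for *Elf5* with r = 0.91, the closest of the other 6 members. Next to *Aldh1a3* were *Slc35a1* (r = 0.94), *Ptp4a2* (r = 0.94), *Fgfrl1* (r = 0.93), *Fam3c* (r = 0.93) and *Yars* (r = 0.91). *Kit* ranked 6173 for *Aldh1a3* with r = 0.12, and the 9 values share the treatment groups and saline tumor 3.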

How the data were processed

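Raw read counts per gene from 9 tumors were deposited by the authors without normalization. Sequencing and counting were carried out by Novogene. The submitters' processing notes list TopHat2, DESeq2 and mm10 with no role; the counting program, annotation and strand setting were not given in the sources used here. Symbols, positions and exon lengths came from GENCODE M21 (GRCm38), which held 34490 of 35275 identifiers. No annotated gene overlaps a member.

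Genes were filtered with filterByExpr (minimum count 10, minimum total 15) and normalized by TMM. The quasi-likelihood model of edgeR 4.0.16 (R 4.3.3; glmQLFit, glmQLFTest) had a term for each group and took in all 9 tumors; tests were two-sided with Benjamini-Hochberg adjustment over 15821 genes. Log2 CPM used a prior count of 2. The normalization, dispersion and fit were tested on simulated counts of genes that had passed the filter. Alternatives used DESeq2 1.42.0, limma 3.58.1 (voom), edgeR on pairs of groups, upper quartile and RLE factors, dropping the filter or asking for 10 counts in every tumor, robust dispersion, legacy = FALSE, scaling to 8 epithelial genes, and each tumor left out. List counts under these settings, and counts of groups that do not overlap without saline tumor 3, were added after seeing the data.

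Members and gene lists were chosen with earlier results of these data known. Named besides the members were, per list, at most 2 genes in each direction. These had the largest log2 fold change in both treated groups against saline among genes at an unadjusted p under 0.05. Also named were the 5 genes most like *Kit*, *Elf5* and *Aldh1a3*, defining markers and chromosomal neighbors. *Gabrp*, *Prlr*, *Slpi*, *Cxcl1*, *Cldn4* and genes named only for saline tumor 3 were chosen after their values were seen. Promoter sequences came from a RefSeq table (GRCm38.p6) that held 4 of the 7 members. Those of *Kit*, *Elf5* and *Itga2* were taken, with stretches within annotated exons left out, and that of *Kitl* was not examined. Tumors within a group were separate labelled samples numbered in accession order, and p-values measure the spread between them. Counting limits cover counting error only. Other assays of the study were not analysed here.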

Additional observations from a re-analysis of the deposited data

How the results depend on the processing

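With 3 tumors per group, edgeR called 0 of the 7 genes at an adjusted p under 0.05 in all 4 comparisons. DESeq2 called 1 (*Kit*) after i.v. TLZ in each of its 3 settings (all 9 tumors, Cook's distance filter off, 2 groups), and 3 (*Kit*, *Ehf* and *Elf5*) in both treated groups together in both of its settings there. At an unadjusted p under 0.05, the count after NanoTLZ went from 3 to 1 with scaling to the epithelial genes, which moved the median of all genes in that comparison from -0.09 to 0.044. In NanoTLZ against i.v. TLZ the count was 1 (*Kit*) instead of 0 with edgeR on the 2 groups, upper quartile normalization and limma-voom, and ranged from 0 to 1 when a tumor was left out, with 1 without saline tumor 3 and without i.v. TLZ tumor 1. The share of all genes higher at that level was 0.449% with all 9 tumors and 0.499% to 1.89% in these 5 settings. The causes were not tested. *Kit*, *Elf5* and *Ehf* stayed lower than saline under all alternatives, with log2 fold changes for *Kit* of -1.75 to -1.40 after i.v. TLZ and -1.11 to -0.81 after NanoTLZ.

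Directions reversed for differences near 0 or resting on 1 tumor. *Itga2* was -0.10 after i.v. TLZ with limma-voom and -0.12 scaled to the epithelial genes, 0.076 with that scaling in NanoTLZ against i.v. TLZ, and 0.032 in both groups together with upper quartile normalization. When 1 tumor was left out, it ranged from -0.65 to 0.37 after i.v. TLZ, -0.31 to 0.14 after NanoTLZ, -0.50 to 0.51 between the treatments and -0.39 to 0.23 in both together. *Cd14* then ranged from -0.037 (without saline tumor 3) to 0.88 after NanoTLZ. Between the treatments, *Cd14* ranged from -0.59 to 0.074, *Kitl* from -0.12 to 0.62, *Ehf* from -0.16 to 0.23 and *Aldh1a3* from -0.13 to 0.61.

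No paired analysis was possible because replicate numbers are not shared between the groups in the labels.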

Other observations

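Markers of the other mammary and stromal cells gave further values beside the 7 genes, all for both treated groups together against saline. Of 10 basal and myoepithelial genes 4 were lower and 6 higher, with a median log2 fold change of 0.15. At an unadjusted p under 0.05, 2 were lower, against 8.29% of all genes. These 2 were *Krt5*, with a log2 fold change of -5.39 (SE 1.67, edgeR adjusted p = 0.284), and *Oxtr*, the oxytocin receptor gene, with -2.85 (SE 1.17, edgeR adjusted p = 0.357). Both were highest in saline tumor 3, with 1849 and 79.3 CPM, and 0 of the 10 passed without that tumor, when the directions of both reversed (log2 fold changes of 1.90 and 1.22) and the median was 0.61. Of 10 genes of hormone-sensing luminal cells 7 were lower and 3 higher with a median of -0.79. Only *Prlr* passed an unadjusted p under 0.05, as lower, against 8.29% of all genes. Leaving out saline tumor 3 gave 4 lower and 6 higher with a median of 0.66.

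All 8 fibroblast genes were higher, with a median log2 fold change of 0.58, and 2 passed an unadjusted p under 0.05, against 4.8% of all genes. These were *Pdgfra*, the neighbor of *Kit*, and *Dcn*, the decorin gene, with a log2 fold change of 1.90 (SE 0.69, edgeR adjusted p = 0.313). Without saline tumor 3, 0 of the 8 passed. All 8 endothelial genes were higher as well, with a median of 0.33, and 0 of 8 passed. When saline tumor 3 was left out, *Pecam1* and *Cdh5* were lower and the median was 0.095. Of 6 tested neutrophil genes 3 were lower and 3 higher with a median of -0.07, and 0 passed. Of 7 tested without saline tumor 3, 6 were lower and 1 higher (*Mmp8*) with a median of -0.69, and 0 passed.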
